A study of Mus musculus with 8 samples.

Results

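Genes of the lymphatic endothelium were examined in the small intestine of Plagl2 knockout and wild-type mouse fetuses at 18.5 days post coitum, on 4 arrays of each genotype. Every probe set of the array listed with exactly 1 gene symbol was taken where that symbol was Prox1, Lyve1, Flt4, Pdpn, Vegfc, Nrp2, Angpt2, Sox18, Mmrn1 or Foxc2, which gave 21 of the 45101 probe sets. All 10 genes were found, among 18194 genes with such a probe set. The samples were small intestines measured on Affymetrix MOE430 2.0 arrays, 1 array per sample. Plagl2 encodes a DNA-binding zinc finger protein of the PLAG family, and its brightest probe set, 1417519_at, gave 701 to 892 in the wild-type and 1 to 11 in the knockout arrays. The sources used here do not give the strain, the allele, the part of the gene that was removed or the litters, and a p-value here covers only how these 8 samples vary. The extraction text of all 8 names wild-type tissue, and the genotype was taken from titles and source names. In bulk samples, fewer cells of a type and less RNA per cell cannot be told apart.

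Lacteals are the blind-ended lymphatic capillaries in the core of each villus. They take up the chylomicrons, the lipoprotein particles that enterocytes make from absorbed fat, and pass them on to the mesenteric lymph. Lymphatic endothelium is set apart from blood endothelium by the transcription factor Prox1, which Sox18 helps to switch on, and it grows towards the ligand Vegfc, which acts through the receptor Flt4 (VEGFR3) and its coreceptor Nrp2. Angpt2 and Foxc2 act in the later shaping of lymphatic vessels and their valves. The hyaluronan receptor Lyve1, the mucin-type membrane protein Pdpn (podoplanin) and the matrix protein Mmrn1 (multimerin) are commonly used as lymphatic markers. Several of the genes are also known outside lymphatic vessels, Lyve1 in some macrophages, Pdpn in mesothelium and fibroblasts, Nrp2 in smooth muscle and neurons, and Prox1 in endocrine and neural cells.

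Of the 21 probe sets, 16 from 9 genes were bright enough for the test across all genes, and 1 of the 16 passed it. Pdpn was higher in the knockout, and no probe set was called as lower. A call was a limma adjusted p under 0.05, and 5.28% of all 27022 probe sets tested were called as higher and 6.70% as lower (12.0% either way). The 1 call among 16 (6.25%) is therefore near the background for higher probe sets and is no result about the set as a whole. At an unadjusted p under 0.05 the same 1 of 16 was higher and none was lower, against 12.9% and 12.7% of all probe sets tested, and no other test was run on these 16. Log2 fold changes (knockout over wild-type, from log2(signal + 16)) were positive for 11 and negative for 5 of the 16, with a median of 0.12 against 0.03 for all probe sets tested. The groups did not overlap for 1 of the 16, again Pdpn, while this held for 17.0% of all probe sets tested (7.70% with the knockout higher).

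**Figure D1:**
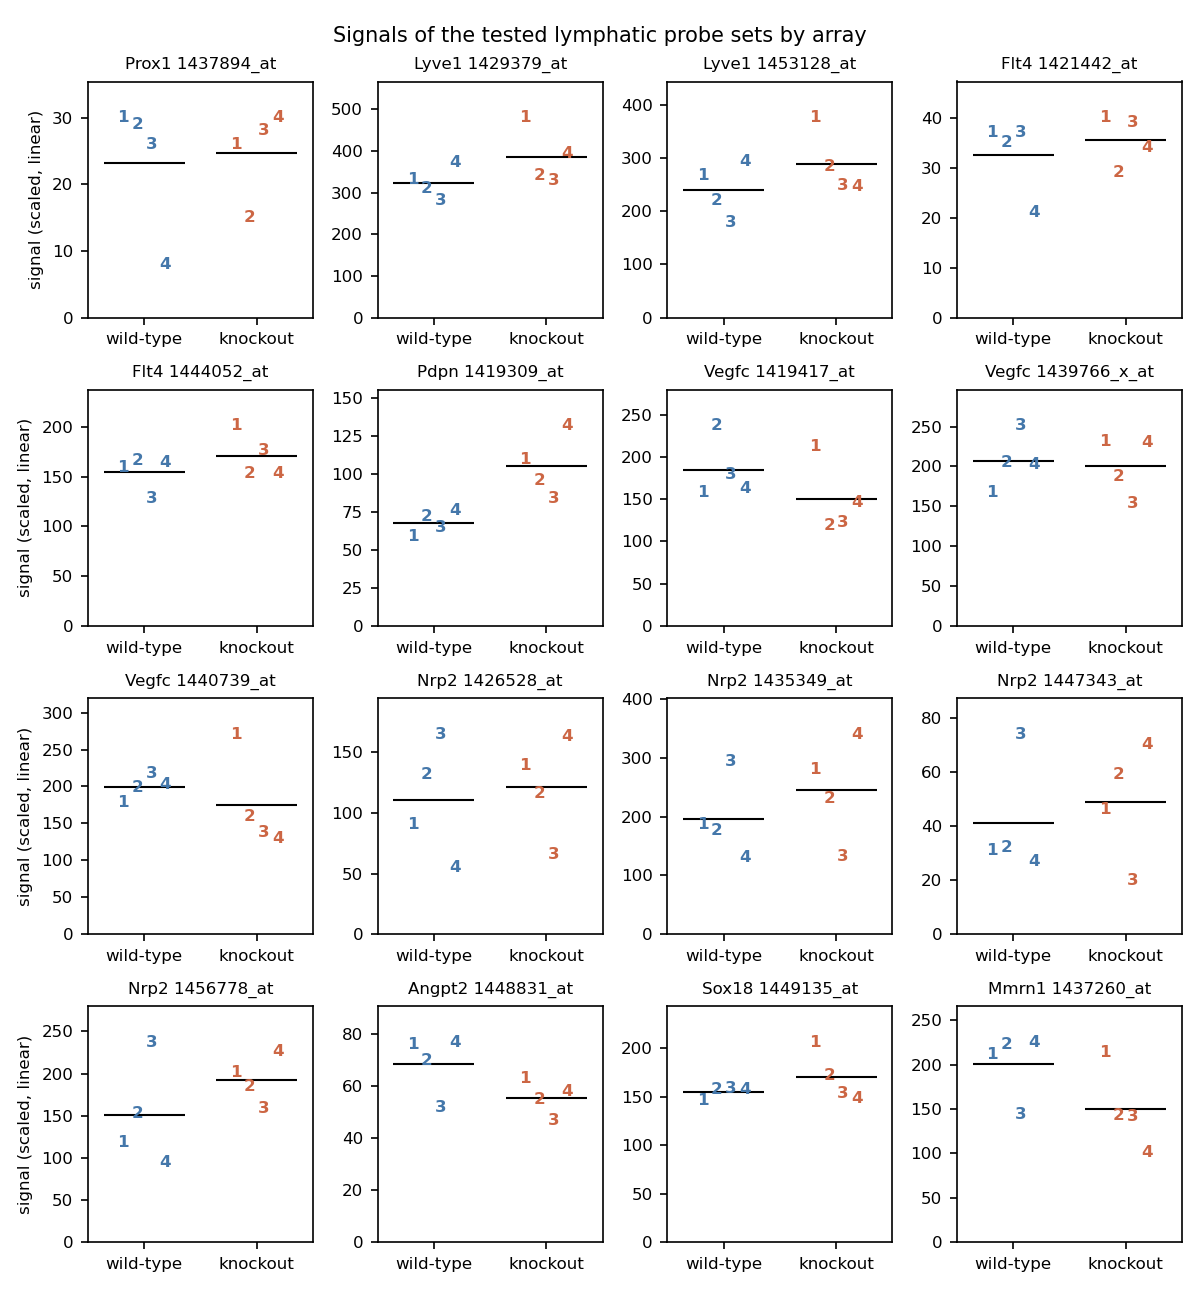
Signal (linear scale, arrays scaled by the authors) of the 16 tested probe sets in wild-type and knockout arrays; each digit is 1 array's replicate number and each black line the mean of 4 arrays. Only the panel of Pdpn has all 4 knockouts above all 4 wild-types, and the 4 Nrp2 panels share a spread within each genotype.

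Median signals were 36 to 42, and pairs of arrays correlated at 0.955 to 0.972 where both had 1 genotype and at 0.943 to 0.958 otherwise (log2 signals). Of 8 intestinal epithelium genes tested, whose summed signal was 27641 to 31246 in wild-type and 27020 to 33352 in knockout arrays, the keratin Krt8 was called as higher (0.52, adjusted p = 0.0037) and its partner Krt18 as lower (-1.02, adjusted p = 0.000136). The call of Krt8 ended after adjustment for Xist (0.050) or the 3' to 5' ratio (0.16). Xist, the RNA of the silenced X chromosome in females, gave 1828 and 1410 in knockout replicates 2 and 3 and at most 47 in the other 6 arrays, among them all wild-types. The 3' to 5' ratio of the actin and Gapdh control probe sets (log2) was 0.017 to 0.098 in knockouts and -0.055 to 0.007 in wild-types. The groups did not overlap in it, so a fit with this ratio as covariate cannot cleanly separate it from genotype.

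Pdpn (1419309_at) gave 59, 72, 65 and 76 in wild-type replicates 1 to 4 and 110, 96, 84 and 132 in knockout replicates 1 to 4. All knockout signals lay above all wild-type signals, and knockout replicate 4 was the highest. The means were 68.0 ± 7.53 and 105.5 ± 20.6 (SD, n = 4), 1.55 times as high in the knockout, with a log2 fold change of 0.52 ± 0.16 (SE, limma adjusted p = 0.0493, 95% interval 0.18 to 0.86). The call lies close to the threshold. It ended without any 1 of wild-type replicates 1 to 4 or knockout replicates 1, 2 or 4 (adjusted p = 0.0701 to 0.132), with the replicate block (0.103), with no filter on dim probe sets (0.0981) and after adjustment for the 3' to 5' ratio (0.275). The log2 fold change stayed between 0.35 and 0.71 over these and the other alternatives.

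Pdpn is known in mesothelium and fibroblasts as well as in lymphatic vessels, and genes of those cells are given beside it. The median log2 fold change was 0.006 for the mesothelial genes and 0.31 for the fibroblast and mesenchyme genes, against 0.03 for all genes tested. Among 7 tested mesothelial genes 1 was called as higher and 1 as lower, and their summed signal was 2795 to 2955 in wild-type and 3477 to 4415 in knockout arrays. The lower one was Upk3b, a uroplakin of mesothelium, with 441 ± 40.8 in wild-type and 188.5 ± 33.4 in knockout arrays (SD, n = 4). The higher one was Krt19 (log2 fold change 0.70), a keratin that the epithelium also makes and the gene that carried most of the summed signal. Krt19 alone gave 2164 to 2244 in wild-type and 2863 to 4066 in knockout arrays, and the higher sum was that of this gene. The other mesothelial genes together, of which Upk3b was the brightest, summed to less in every knockout than in every wild-type array. The defining mesothelial gene Msln, named after its values were seen, had 59.0 ± 25.7 and 60.2 ± 32.3. Among 10 fibroblast and mesenchyme genes 2 were called as higher and 0 as lower (4 and 0 at an unadjusted p under 0.05), while 6.60% of all genes tested were called as higher (14.8% at an unadjusted p under 0.05) and 8.51% as lower (15.0%), and their summed signal was 9742 to 14025 in wild-type and 11135 to 17367 in knockout arrays. These were Fbln1 (log2 fold change 0.66, adjusted p = 0.00125), a matrix protein, and Pdgfrb (0.40, adjusted p = 0.0228), a receptor of mural and stromal cells. The call of Pdgfrb ended on leaving out any 1 of 5 arrays (wild-type 2 or 4, knockout 1, 2 or 4, adjusted p up to 0.0758), with the replicate block (0.103) and in the arrays that lack Xist (0.0581). After adjustment for the 3' to 5' ratio the calls of Krt19 (0.0551), Fbln1 (0.0667) and Pdgfrb (0.231) ended. The part of these cells in the Pdpn signal was not tested.

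Promoter sequence, 250 bases before to 50 after the annotated start, was at hand from RefSeq (GRCm38.p6) for 6 of the 10 genes, in 7 windows. It is shown because the removed factor binds DNA, and PLAG family proteins are known to prefer GC-rich sites. Searched for on both strands were the PLAG bipartite motif and the letters GGGGCCC, which can overlap it. A bipartite form was found in 2 of the 7 windows and in 12.17% of all 32851 promoter windows of that length. GGGGCCC was found in 2 of the 7 and in 6.66% of all. The windows with a bipartite form, of Vegfc and Flt4, were each 70.3% GC, and those with GGGGCCC, of Prox1 and Pdpn, 64.3% and 48.7%. The median over all windows was 52.7%. The shares were not adjusted for GC content, so these counts do not measure enrichment. The window of Pdpn, the gene called as higher, lies at chr4:143299515-143299814 on the minus strand, and capitals mark its 1 match, to GGGGCCC on the opposite strand.
Pdpn promoter: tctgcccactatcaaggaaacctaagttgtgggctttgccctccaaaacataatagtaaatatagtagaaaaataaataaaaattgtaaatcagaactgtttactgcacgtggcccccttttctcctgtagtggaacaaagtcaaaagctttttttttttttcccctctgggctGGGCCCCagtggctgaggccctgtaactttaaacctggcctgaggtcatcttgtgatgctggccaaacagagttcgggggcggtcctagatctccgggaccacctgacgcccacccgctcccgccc
The other matches were in genes that did not pass the test or were too dim in part, and are shown with 10 bases on each side, the match in capitals.
Vegfc, chr8:54077282-54077316, plus strand: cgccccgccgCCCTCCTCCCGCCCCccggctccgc
Flt4, chr11:49609580-49609614, plus strand: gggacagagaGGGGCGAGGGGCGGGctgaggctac
Flt4, chr11:49609677-49609711, plus strand: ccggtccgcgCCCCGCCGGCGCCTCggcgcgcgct
Prox1, chr1:190170891-190170917, minus strand: ggggagcgctGGGCCCCcctctcctcc
No match overlapped another. The windows of Nrp2 and Mmrn1 held none of these exact patterns, which does not exclude other forms of the bipartite motif. A match describes the letters of the window and is not a site of binding.

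Vegfc, the main growth factor of lymphatic vessels, did not pass the test by any of its 3 probe sets. Probe set 1419417_at gave 158, 237, 179 and 163 in wild-type replicates 1 to 4 and 213, 119, 123 and 146 in knockout replicates 1 to 4. Knockouts 2 to 4 lay below every wild-type array and knockout 1 above 3 of them. The log2 fold change was -0.29 ± 0.18 (SE, adjusted p = 0.37, 95% interval -0.69 to 0.12). Probe set 1440739_at gave 178, 198, 217 and 202 in wild-types and 271, 160, 138 and 130 in knockouts, the same pattern with knockout replicate 1 as the highest of all 8 arrays (-0.22 ± 0.19, adjusted p = 0.516). Without knockout replicate 1 it had -0.44 (adjusted p = 0.0726) and 1419417_at -0.45 (0.127). After adjustment for Xist the values were -0.04 and 0.0020, and in the arrays that lack Xist -0.07 and -0.04. In the third, 1439766_x_at, the groups lay within each other, at 167 to 251 and 154 to 231 (-0.04 ± 0.16, adjusted p = 0.905), and the sign turned after adjustment for Xist (0.16).

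Angpt2, a ligand of the receptor Tek that is needed for lymphatic remodelling, gave 76, 70, 52 and 77 in wild-type and 63, 55, 47 and 58 in knockout replicates 1 to 4 by 1448831_at. Wild-type replicate 3 lay among the knockouts, and the other 3 wild-types lay above all of them. The log2 fold change was -0.23 ± 0.16 (SE, adjusted p = 0.398, 95% interval -0.58 to 0.11), and it was negative under all 20 alternatives. The second probe set of the gene, 1459636_at, was at 1 to 13 and too dim for the test (exact permutation p = 0.114, two-sided).

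Flt4, the receptor of Vegfc, gave 159, 166, 128 and 164 in wild-type and 201, 153, 176 and 153 in knockout replicates 1 to 4 by 1444052_at. The groups overlapped, with means of 154 ± 17.7 and 171 ± 22.9 (SD, n = 4). The log2 fold change of 0.13 ± 0.13 (SE, adjusted p = 0.588) had a 95% interval of -0.16 to 0.42. The dimmer 1421442_at gave 21 to 37 in wild-types and 29 to 40 in knockouts (0.10 ± 0.19, adjusted p = 0.803).

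The coreceptor Nrp2, which binds Vegfc and class 3 semaphorins, had 4 tested probe sets that varied more within each genotype than between genotypes. Signals of 1435349_at were 187, 177, 294 and 130 in wild-type and 280, 231, 132 and 341 in knockout replicates 1 to 4. The highest arrays were wild-type replicate 3 and knockout replicate 4, and the lowest were wild-type replicate 4 and knockout replicate 3. Probe set 1426528_at gave 90, 132, 165 and 55 in wild-types and 139, 116, 66 and 163 in knockouts, with the same arrays highest and lowest. The same 4 arrays were also highest and lowest of their groups by 1447343_at and 1456778_at. Log2 fold changes of the 4 probe sets were 0.14 to 0.38 with SEs of 0.22 to 0.30, and none passed (adjusted p = 0.31 to 0.809). The highest of them, 1456778_at, was called as higher without wild-type replicate 3 (0.61, adjusted p = 0.033).

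Smooth muscle genes had the same array order at its ends. Of 8 tested, all 8 were highest of the wild-types in replicate 3, and 7 were highest of the knockouts in replicate 4. Their mean log2 signal was 9.43, 9.29, 9.80 and 9.11 in wild-type and 9.94, 9.95, 9.39 and 10.18 in knockout replicates 1 to 4. Their summed signal was 8064 to 13878 in wild-type and 10331 to 16869 in knockout arrays. By genotype, 1 was called as higher and 0 as lower (5 and 0 at an unadjusted p under 0.05), against 6.60% and 8.51% of all genes tested (14.8% and 15.0%), with a median log2 fold change of 0.51. The call was Smtn (0.67, adjusted p = 0.0159), a protein of contractile smooth muscle, and it was lost on leaving out any 1 of 4 arrays, replicates 1 and 2 of either genotype (0.0524 to 0.0605), with the replicate block (0.0704) and after adjustment for Xist (0.10) or the 3' to 5' ratio (0.121). The order was not particular to muscle. Of 10 fibroblast and mesenchyme genes, 7 were highest of the wild-types in replicate 3 and 7 of the knockouts in replicate 4. Wild-type replicate 4 was lowest for 9 of them and knockout replicate 3 for 8. Mean log2 signal of 8 enteric neuron and glia genes was 6.794 in wild-type replicate 3, against 6.245 to 6.508 in the other wild-types. It was 6.953 in knockout replicate 4, against 6.268 to 6.73 in the other knockouts. The part of muscle, stroma and neurons in the Nrp2 signal was not tested.

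**Figure D2:**
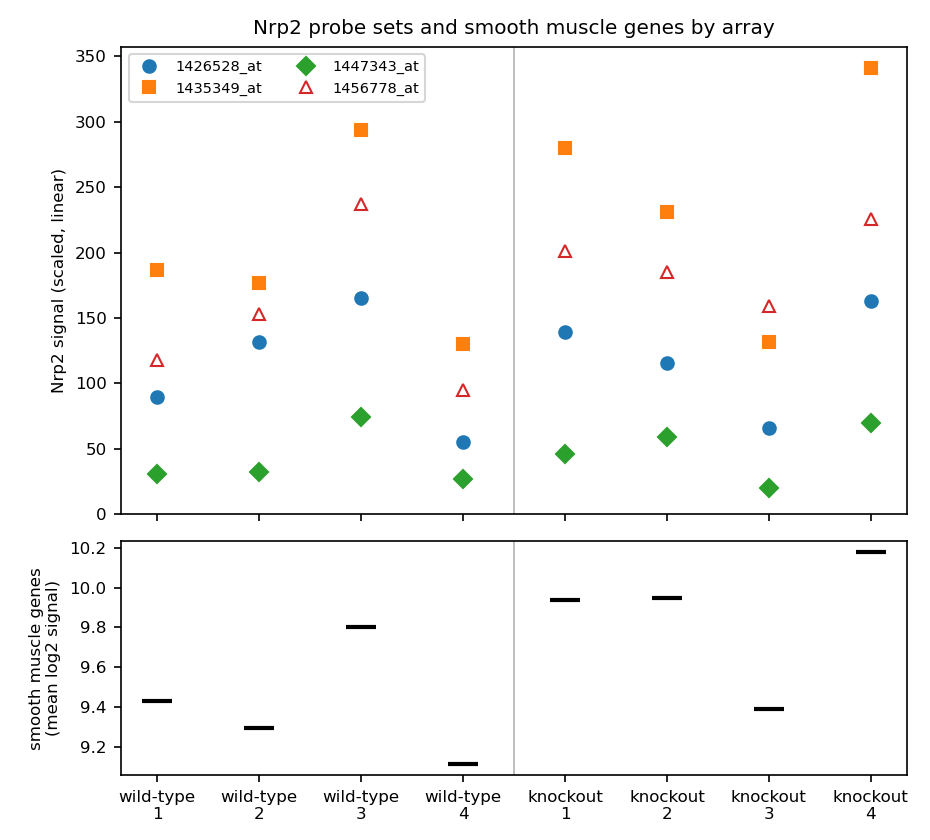
Signals of the 4 Nrp2 probe sets (upper panel, linear scale) and the mean log2(signal + 16) of 8 smooth muscle genes (lower panel, axis not from 0) in each array. Wild-type replicate 3 and knockout replicate 4 are highest of their groups in both panels, and wild-type replicate 4 and knockout replicate 3 lowest.

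Of the transcription factors, Prox1 and Foxc2 were at the edge of what the arrays could measure. The brightest Prox1 probe set, 1437894_at, gave 30, 29, 26 and 8 in wild-type and 26, 15, 28 and 30 in knockout replicates 1 to 4. Its mean was just above the level at which probe sets were left out, and the groups lay within each other. The log2 fold change was 0.08 ± 0.26 (SE, adjusted p = 0.878, 95% interval -0.49 to 0.65). The other 2 Prox1 probe sets and the only one of Foxc2 were too dim for the test, with Foxc2 (1416693_at) at 2 to 17 in wild-types and 2 to 22 in knockouts. Nothing can be said from these arrays about the direction of Prox1 or Foxc2.

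Sox18 was measured well above that level. Probe set 1449135_at gave 146, 157, 158 and 157 in wild-type and 206, 172, 153 and 148 in knockout replicates 1 to 4. The wild-types lay close together, 2 knockouts lay above all of them and the other 2 within their range. The means were 154.5 ± 5.69 and 170 ± 26.3 (SD, n = 4), and the log2 fold change of 0.11 ± 0.13 (SE, adjusted p = 0.626) had a 95% interval of -0.16 to 0.39.

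Of the surface and matrix markers, Lyve1 had signals of 331, 309, 281 and 372 in wild-type and 480, 341, 330 and 394 in knockout replicates 1 to 4 by 1429379_at. Knockout replicate 1 was the highest array, and the other knockouts lay within or just above the range of the wild-types. The means were 323 ± 38.4 and 386 ± 68.5 (SD, n = 4), with a log2 fold change of 0.24 ± 0.14 (SE, adjusted p = 0.307, 95% interval -0.06 to 0.54). The second probe set, 1453128_at, gave 268, 220, 179 and 294 in wild-types and 376, 284, 249 and 247 in knockouts (0.25 ± 0.17, adjusted p = 0.394). Without knockout replicate 1 the 2 values were 0.13 and 0.13, and after adjustment for the 3' to 5' ratio they were -0.01 and -0.19.

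Lyve1 is also carried by some macrophages. Of 12 tested macrophage genes 2 were called as lower and 0 as higher (8 and 1 at an unadjusted p under 0.05). Of all genes tested, 8.51% were called as lower and 6.60% as higher (15.0% and 14.8% at an unadjusted p under 0.05). The macrophage genes had a median log2 fold change of -0.42 against 0.03 for all genes. Their summed signal was 4811 to 6341 in wild-type and 2008 to 2770 in knockout arrays. Csf1r, the receptor of the growth factor CSF1, made up 59.7% to 68.7% of this sum in wild-types and 29.2% to 33.0% in knockouts, and without it the sums were 1874 to 2096 and 1345 to 1912. Csf1r went from 3752 ± 635 to 707 ± 103 (SD, n = 4, adjusted p = 7.88e-07). Adgre1 (F4/80) gave 180, 186, 159 and 187 in wild-type and 71, 79, 67 and 121 in knockout arrays (log2 fold change -0.98 ± 0.16 SE, adjusted p = 0.00205), and its call ended after adjustment for the 3' to 5' ratio (0.0922). Mrc1 and Stab1, which mark macrophages that often carry Lyve1 and were named after their values were seen, had log2 fold changes of 0.06 and 0.12 and did not pass. Cd163 and Timd4 were too dim for the test. The part of macrophages in the Lyve1 signal was not tested.

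Mmrn1, a matrix protein of endothelium and platelets, had the most negative value of the 16. Probe set 1437260_at gave 211, 223, 144 and 225 in wild-type and 213, 143, 142 and 101 in knockout replicates 1 to 4. Wild-type replicate 3 lay with the lower knockouts and knockout replicate 1 with the higher wild-types. The means were 201 ± 38.3 and 150 ± 46.5 (SD, n = 4), with a log2 fold change of -0.41 ± 0.20 (SE, adjusted p = 0.231, 95% interval -0.85 to 0.03). After adjustment for the 3' to 5' ratio, which cannot be cleanly separated from genotype here, it was called as lower (-1.03, adjusted p = 0.0129). Without knockout replicate 4 it was -0.26 (adjusted p = 0.459). Of 3 platelet genes tested, Gp1bb was called as higher by 1422977_at (1.30, adjusted p = 0.00148), while its dimmer probe set 1456427_at had 0.02. Its call ended after adjustment for the 3' to 5' ratio (0.0849). The others, Pf4 and Itga2b, had -0.02 and -0.12 and did not pass. The part of platelets in the Mmrn1 signal was not tested. Probe set 1430621_at of Mmrn1 was at 0 to 11 and too dim for the test.

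**Figure D3:**
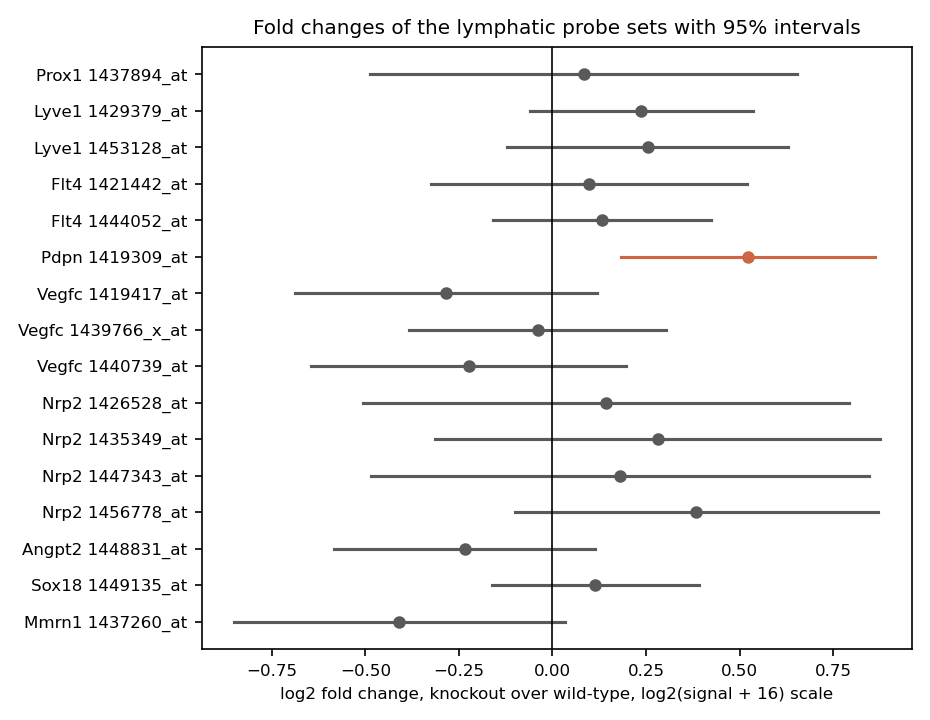
Log2 fold change of knockout over wild-type (points) with 95% intervals from limma (lines) for the 16 tested probe sets; signals had 16 added before log2. The interval of Pdpn, drawn in colour as the 1 call, runs from 0.18 to 0.86, and all other intervals include 0.

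The 5 probe sets left out as dim were compared singly with an exact two-sided permutation test of 4 against 4 arrays, whose smallest possible p is 0.0286. Their p-values were 0.114 to 0.971, or 0.571 to 0.971 after Benjamini-Hochberg adjustment over the 5. At these signals, of 0 to 31 in single arrays, a difference was not detectable.

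Knockout replicate 1 stood out among the knockouts. It was the highest knockout in 10 of the 16 probe sets, namely those of Lyve1, Flt4, Vegfc, Angpt2, Sox18 and Mmrn1, and the lowest in 0. Of 26 genes of endothelium in general it was the highest knockout in 9, little more than knockouts 2, 3 and 4 (8, 6 and 5). Its mean log2 signal over these 26 genes was 7.39, against 7.21 to 7.27 in the other knockouts and 7.13 to 7.31 in wild-types. Wild-type replicate 3 was the lowest wild-type in 5 of the 16 and the highest in 8. Signals of neighbouring organs and blood also set arrays apart. Mean log2 signal of 7 pancreas genes was 8.52 in knockout 1, 6.61 to 7.19 in the other knockouts and 6.40 to 7.91 in wild-types. That of 2 red cell genes was 8.39 in knockout 1 and 8.62 in knockout 4, against 6.47 and 7.15 in the other knockouts and 6.35 to 7.42 in wild-types. That of 5 liver genes was 10.65 in knockout 4 and 8.37 in knockout 1, against 6.43 and 6.52 in the other knockouts and 7.51 to 8.02 in wild-types. None of the pancreas or red cell genes was called (0 and 1 had an unadjusted p under 0.05, the 1 as higher), and of the liver genes Cps1, which enterocytes also make, was called as lower (-0.31, adjusted p = 0.0322). That call ended without any 1 of 5 arrays (replicates 1 and 2 of either genotype and wild-type 4) and after adjustment for Xist (0.145) or the 3' to 5' ratio (0.218). The part of these tissues in the signals of Lyve1, Pdpn and Nrp2, which were high in knockout 1 or 4, was not tested. No probe set of the 16 was called both with all arrays and without knockout replicate 1.

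Other genes of the pathway were taken from lists by role, and few passed the test. Among 11 ligands and processing factors 1 was called as lower and 0 as higher (1 and 1 at an unadjusted p under 0.05), with a median log2 fold change of 0.23 against 0.03 for all 12838 genes tested. Of all these genes, 6.60% were called as higher and 8.51% as lower (14.8% and 15.0% at an unadjusted p under 0.05). The call was Vegfb, a ligand of Flt1, with 135, 141, 168 and 127 in wild-type and 86, 91, 60 and 93 in knockout replicates 1 to 4. Its groups did not overlap (log2 fold change -0.70 ± 0.15 SE, adjusted p = 0.0107). The call held without any 1 array (adjusted p up to 0.0333) and ended with the replicate block (0.0622), after adjustment for Xist (0.0947) or for the 3' to 5' ratio (0.179), and in the 6 arrays that lack Xist (0.0594).

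The following ligands, named after their values were seen, did not pass. Vegfa, the main ligand of blood vessel growth, had 534 and 422 (means, n = 4, log2 fold change -0.30, adjusted p = 0.333). Leaving out wild-type replicate 3 made it a call as lower (-0.50, adjusted p = 0.0153), as did leaving out both that array and knockout replicate 4 (0.0219) or weighting the arrays (0.0456). Vegfd, the second ligand of Flt4, had 31.2 and 39.5 by its brightest probe set (0.23, adjusted p = 0.632). Ccbe1 and the protease gene Adamts3, which together activate the Vegfc protein, had log2 fold changes of 0.19 (adjusted p = 0.613) and -0.03 (0.939), and the sign of each turned under some alternatives. Sema3f, a semaphorin that binds Nrp2, gave 82, 84, 151 and 43 in wild-types and 211, 125, 115 and 223 in knockouts (0.84 ± 0.29 SE, adjusted p = 0.0901). It was called as higher without wild-type replicate 3 (1.09, adjusted p = 0.0165), without both that array and knockout replicate 4 (0.0287), with array weights (0.0256) and after adjustment for Xist (0.0349).

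Among 18 receptors and adhesion molecules 0 were called in either direction (0 higher and 1 lower at an unadjusted p under 0.05), with a median log2 fold change of 0.04. The 2 with the highest means were Itgb1, the beta chain of the integrins, and Nrp1, the coreceptor of Vegfa. Itgb1 had -0.40 ± 0.12 (SE, adjusted p = 0.0502), while its dimmer probe set 1426918_at was called as lower (-0.35, adjusted p = 0.0464). The brighter one was called as lower under 6 of the 20 alternatives, among them without wild-type replicate 3 (0.0423) or knockout replicate 4 (0.0296). Nrp1 had 0.07 ± 0.13 (adjusted p = 0.784), a sign that turned under some alternatives. Kdr (VEGFR2, -0.14, adjusted p = 0.648) and Tek (-0.25, adjusted p = 0.261), the receptor of Angpt2, were named after their values were seen and did not pass.

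Among 10 transcription factors 0 were called (1 higher and 0 lower at an unadjusted p under 0.05), with a median of 0.21. Vezf1 (0.23, adjusted p = 0.322), a regulator of vessel growth, and Sox17 (0.06, adjusted p = 0.818), a relative of Sox18, had the highest means. Nr2f2 (COUP-TFII), which acts with Sox18 upstream of Prox1 and was named after its values were seen, had 0.26 (adjusted p = 0.379).

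Among 15 other lymphatic vessel markers 1 was called as lower and 0 as higher (1 and 0 at an unadjusted p under 0.05), with a median of 0.14. It was Maf, a transcription factor that lymphatic endothelium shares with macrophages and other cells. Probe set 1456060_at gave 4215, 4117, 3692 and 3973 in wild-type and 2527, 2705, 2885 and 2724 in knockout replicates 1 to 4, with no overlap (-0.56 ± 0.07 SE, adjusted p = 0.000406). It stayed called under all 20 alternatives. Of the 6 tested Maf probe sets, 3 were called, each as lower. Reln, a secreted protein of collecting lymphatics named after its values were seen, had 227 and 173 (-0.37, adjusted p = 0.361). After adjustment for the 3' to 5' ratio, which cannot be cleanly separated from genotype here, Reln was called as lower (-1.14, adjusted p = 0.00688). Clca1, which is in this list, is known as a goblet cell gene and did not pass.

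Among 13 genes of lymphatic valves and junctions 1 was called as higher and 0 as lower (4 and 0 at an unadjusted p under 0.05), with a median of 0.13. Efnb2, the membrane ligand ephrin-B2 that valves, arteries and other tissues use, gave 292, 268, 320 and 301 in wild-type and 665, 722, 705 and 541 in knockout replicates 1 to 4 by 1419639_at. Every knockout lay well above every wild-type, with means of 295 ± 21.6 and 658 ± 81.7 (SD, n = 4) and a log2 fold change of 1.11 ± 0.11 (SE, adjusted p = 6.02e-05). It stayed called under all 20 alternatives, at 0.98 to 1.24. Of its 4 tested probe sets 3 were called as higher (0.84, 1.11 and 1.00), while 1449549_at, among the dimmest, had 0.09 and did not pass. Its receptor gene Ephb4, named after its values were seen, had 0.39 ± 0.14 (SE, adjusted p = 0.11) and was called with array weights (0.0378). The arrays do not tell which cells the Efnb2 signal came from.

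**Figure D4:**
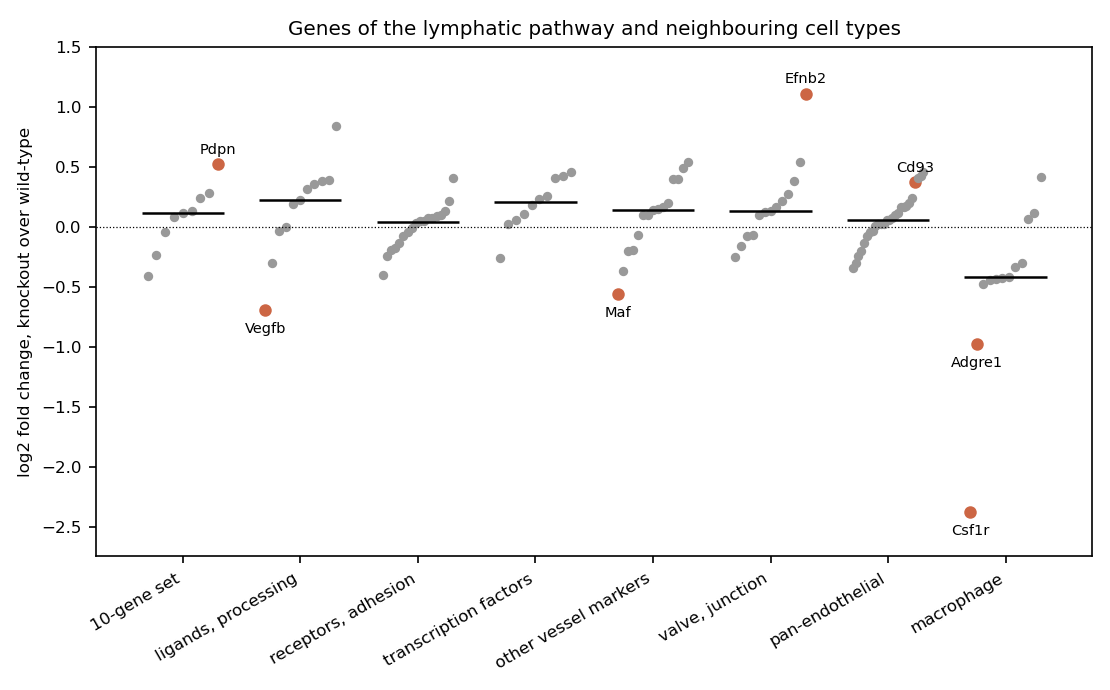
Log2 fold change of knockout over wild-type for each tested gene (points, by its brightest probe set) in the 10-gene set, the 5 lists of pathway genes, endothelium in general and macrophages; black lines are medians and coloured, named points passed the test. Some genes are drawn in several lists. Efnb2 at 1.11 and Csf1r at -2.38 lie furthest from 0, and medians other than that of macrophages lie at 0.04 to 0.23.

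Genes of endothelium in general gave a measure of vessels as a whole. Several are also in the lists above, by the same probe sets. They are Kdr, Flt1, Tie1, Tek and Cdh5 (receptors), Sox7, Sox17, Tal1 and Erg (transcription factors) and Cldn5 (junctions). The counts are therefore not independent of those above. Of 26 tested, 1 was called as higher and 0 as lower (2 and 1 at an unadjusted p under 0.05), with a median log2 fold change of 0.06 and a range of -0.34 to 0.46. Their summed signal was 3822 to 4312 in wild-type and 3909 to 4554 in knockout arrays. The call was Cd93 (0.37 ± 0.10 SE, adjusted p = 0.0281), a surface protein of endothelium, and it ended without any 1 of 5 arrays (replicates 1 and 2 of either genotype and wild-type replicate 4, adjusted p = 0.0525 to 0.0982), with the replicate block (0.103) and after adjustment for Xist (0.144) or the 3' to 5' ratio (0.324).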

How the data were processed

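Total RNA of 8 small intestines was converted to biotinylated cRNA and hybridized to Affymetrix MOE430 2.0 arrays, per the labels. The deposited table holds 1 signal intensity per probe set and array on a linear scale. The mean of each array, trimmed by 2% at each end, was about 150.0, so the authors' scaling is in the values. The signal algorithm is not given in the sources used here. The table has no detection calls. Symbols came from the platform annotation, in which 34958 probe sets have 1 symbol, 932 several and 9211 none. Of the first, 34754 were found by Entrez ID in the RefSeq table of GRCm38.p6.

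The 64 control probe sets were left out. Signals were transformed as log2(signal + 16), the 40% of probe sets with the lowest mean on that scale were dropped, and the remaining 27022 were fitted with limma 3.58.1 in R 4.3.3 (intensity trend, genotype as the only term) with Benjamini-Hochberg adjustment, two-sided. The added 16 shrinks fold changes of dim probe sets. A gene in a list is represented by the brightest of its tested probe sets. Some genes are in several lists, so the counts of different lists are not independent. The fit was tested on simulated data.

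The 10 genes, the 18 lists and the tests were chosen with earlier results of these data known. The naming rule takes all probe sets of the 10 genes, called genes of a list, and the 2 brightest of a pathway list without a call. Alternatives were other filters (none, 60%), offsets (1, 64), quantile normalization, the replicate block, no intensity trend, array weights, covariates for Xist and the 3' to 5' ratio, the arrays without Xist signal, and arrays left out. For list genes these were added after the data were seen. For arrays, their number limits the precision.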

Additional observations from a re-analysis of the deposited data

Results flagged for a closer look

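In 8 of 42 groups of 4 arrays 1 array lay far from the other 3. The measure was its gap to the nearest of them, as a share of the whole range on the log2 scale. The cut-off would flag about 1 of 20 groups only if the values were independent and normally distributed. Here the groups share the same 8 arrays, some genes have several probe sets, and dim signals are small whole numbers. The count of 8 can therefore not be compared with that rate, and the groups are listed only as single arrays to look at. In wild-type replicate 3, Nrp2 (1447343_at) was at 74 against 27 to 32 (gap 0.851), Flt4 (1444052_at) at 128 against 159 to 166 (0.833) and Mmrn1 (1437260_at) at 144 against 211 to 225 (0.854). In wild-type replicate 4, Prox1 (1437894_at) was at 8 against 26 to 30 (0.86) and Flt4 (1421442_at) at 21 against 35 to 37 (0.893). In wild-type replicate 1, Sox18 (1449135_at) was at 146 against 157 to 158 (0.919), a small difference beside 3 close values. The dim Angpt2 probe set 1459636_at was at 13 against 2 to 3 in wild-type replicate 1 (0.887) and at 3 against 1 in knockout replicate 2 (gap 1).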

How the results depend on the processing

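The count of probe sets called as higher, 1 with all arrays, was 0 with no filter, an offset of 64, the replicate block, no intensity trend, adjustment for the 3' to 5' ratio, and without both wild-type 3 and knockout 4. It was 0 to 1 with single arrays left out, and without wild-type replicate 3 the 1 call was Nrp2 (1456778_at) in place of Pdpn. The count called as lower, 0, was 1 after adjustment for that ratio (Mmrn1), and 0 to 0 with single arrays left out. The sources used here do not say whether equal replicate numbers share a litter. Same-numbered arrays deviated from their group means with correlations of -0.274 to -0.011 across genes, and differently numbered ones with -0.073 to 0.178. So few arrays cannot decide whether the numbers pair the samples. The block took calls over all probe sets from 1427 higher and 1811 lower to 751 and 1164.

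Signs that turned were all of values that did not pass either way, and their cause was not tested. With array weights Prox1 had -0.018, Vegfc (1439766_x_at) 0.032 and Adamts3 0.10. With the Xist covariate Vegfc had 0.0020 (1419417_at) and 0.16 (1439766_x_at) and Adamts3 0.025, and in the arrays that lack Xist the last 2 had 0.16 and 0.0185. Adjusted for the 3' to 5' ratio, Lyve1 had -0.011 and -0.19, Flt4 (1444052_at) -0.14, Vegfc (1439766_x_at) 0.027, Sox18 -0.073, Nrp1 -0.066 and Sox17 -0.072. Without both arrays Ccbe1 had -0.0095, Adamts3 0.10 and Nrp1 -0.0076. With single arrays left out the ranges were -0.14 to 0.21 for Prox1, -0.028 to 0.16 for Flt4 (1421442_at), -0.13 to 0.071 for Vegfc (1439766_x_at), -0.11 to 0.37 for Nrp2 (1426528_at), -0.13 to 0.072 for Adamts3 and -0.0096 to 0.17 for Nrp1. The Prox1 probe set was bright enough for the test in 11 of the 20 alternatives.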

Other observations

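A list of 12 genes of the response to low oxygen held signals for vessel growth and also its regulators Hif1a and Epas1. Of the 12, 4 were called as higher and 0 as lower (7 and 1 at an unadjusted p under 0.05), with a median log2 fold change of 0.34. The 1 lower was Ndrg1 (-0.32, adjusted p = 0.188), named after its values were seen. Of all genes tested, 6.60% were called as higher and 8.51% as lower (14.8% and 15.0% at an unadjusted p under 0.05). Car9, a carbonic anhydrase, went from 125 ± 21.4 to 622 ± 126 (SD, n = 4, 2.17 ± 0.16 SE, adjusted p = 5e-06) and was called under all 20 alternatives. Pdk1 (0.97, adjusted p = 0.0222), Epas1 (0.70, 0.0276), which encodes HIF-2 alpha, and Egln3 (0.58, 0.043) were the others. Without single arrays Pdk1 lost its call in 2 cases, Epas1 in 4 and Egln3 in 5 (adjusted p up to 0.0745, 0.076 and 0.12). All 3 calls ended after adjustment for Xist (adjusted p = 0.151, 0.188 and 0.322, with Egln3 at 0.26) and in the arrays that lack Xist (0.144, 0.187 and 0.229). Epas1 had adjusted p = 0.48 after adjustment for the 3' to 5' ratio. Vegfa and Adm, which are in this list and also in that of the ligands, did not pass with all arrays. Adm, named after its values were seen, had 0.39 (adjusted p = 0.285).

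Prox1 is also known in endocrine and neural cells. Of 8 tested enteroendocrine genes 2 were called as lower and 0 as higher (4 and 0 at an unadjusted p under 0.05). Of all genes tested, 8.51% were called as lower and 6.60% as higher (15.0% and 14.8% at an unadjusted p under 0.05). The enteroendocrine list had a median log2 fold change of -0.45. Its 2 calls were the granule genes Chgb (-1.04, adjusted p = 0.00258) and Chga (-0.99, adjusted p = 0.0148). The call of Chga was lost when any 1 of wild-type replicates 1 and 2 and knockout replicate 2 was left out (0.0514 to 0.0559), with the replicate block (0.051) and after adjustment for Xist (0.116). Of 8 genes of enteric neurons and glia 1 was called as lower and 0 as higher (1 and 2 at an unadjusted p under 0.05). Their median log2 fold change was 0.42, so the list leaned the other way from its 1 call. The call was S100b (-0.89, adjusted p = 0.0379), and it ended without 6 of the 8 arrays taken singly.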
